A study of Mus musculus with 6 samples.

Results

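The genes described here are 5 genes of caveolae and their coat, *Cav1*, *Cav2*, *Cavin1*, *Cavin2* and *Cavin3*, together with *Tm4sf1* and *Cyp1b1*. They are 7 of the 53858 genes of the count table and were taken by gene name. They were chosen by earlier results of these libraries: *Cyp1b1*, *Tm4sf1* and *Cavin3* were selected on the size of p and on lower counts in one group, and the other 4 are further caveola genes. Their differences between the groups are therefore given as a description and not as a test. Poly(A) RNA was sequenced from pools of 10 to 15 picked motor neurons from the spinal cord of wild-type mice, on day 6 of an experiment in which the sciatic nerve was crushed on day 0. The dye DiO, given near the injury on day 0, entered all injured motor neurons, and DiI, given at a distal site on day 2, entered those whose regrown axons had got there first. The groups are 3 pools with DiO and without DiI, called DiO-only pools, and 3 pools with both dyes, called double-labelled pools. Both groups share the genotype, the crush, DiO and the day of collection. The labels give no strain, sex or age, and do not say that pools came from different animals, so the spread between pools may be technical.

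Caveolae are small flask-shaped pits of the plasma membrane that buffer membrane tension and take part in uptake and signalling. Caveolin-1 builds the membrane scaffold with caveolin-2 as its partner, and cavin-1 stabilises the coat. Cells other than muscle lack caveolae without caveolin-1, and caveolae need cavin-1 as well. Cavin-2 helps to shape the pits, and cavin-3 is a further coat protein that is also known from outside caveolae. Caveolae are typical of endothelium, fat and muscle. *Tm4sf1* encodes a surface protein of the L6 family with 4 membrane spans, known from endothelial and tumour cells. *Cyp1b1* encodes a cytochrome P450 monooxygenase that acts on steroids, retinoids and polycyclic hydrocarbons, and is a classical target of the aryl hydrocarbon receptor (AhR).

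The upstream sequences of 4 of the genes are shown, *Cyp1b1* and *Tm4sf1* because they had the largest differences between the groups, and *Cav2* and *Cav1* because these neighbours in the genome had very different levels. Each is the 250 bases before the transcription start in RefSeq (build GRCm38.p6), in the direction of the gene. Capitals mark matches on either strand to GCGTG (the core bound by AhR with its partner), TGANTCA (AP-1), TGACGTCA (CREB and ATF) or GGGCGG (the GC box).
Cyp1b1 (chr17:79715062-79715311, minus strand): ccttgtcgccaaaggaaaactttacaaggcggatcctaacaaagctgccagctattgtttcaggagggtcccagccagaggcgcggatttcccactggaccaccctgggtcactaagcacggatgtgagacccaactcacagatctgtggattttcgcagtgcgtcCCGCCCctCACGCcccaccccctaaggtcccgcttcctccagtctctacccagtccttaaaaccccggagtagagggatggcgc
Tm4sf1 (chr3:57301989-57302238, minus strand): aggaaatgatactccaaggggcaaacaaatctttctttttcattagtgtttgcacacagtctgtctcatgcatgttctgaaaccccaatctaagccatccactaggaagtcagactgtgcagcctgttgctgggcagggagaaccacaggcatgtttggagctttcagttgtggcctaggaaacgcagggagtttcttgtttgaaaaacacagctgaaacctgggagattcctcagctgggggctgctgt
Cav2 (chr6:17280935-17281184, plus strand): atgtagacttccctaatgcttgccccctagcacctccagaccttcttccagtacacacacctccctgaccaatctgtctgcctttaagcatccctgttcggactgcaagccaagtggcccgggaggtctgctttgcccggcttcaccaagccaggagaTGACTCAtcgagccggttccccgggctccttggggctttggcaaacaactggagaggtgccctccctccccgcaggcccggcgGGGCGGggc
Cav1 (chr6:17306085-17306334, plus strand): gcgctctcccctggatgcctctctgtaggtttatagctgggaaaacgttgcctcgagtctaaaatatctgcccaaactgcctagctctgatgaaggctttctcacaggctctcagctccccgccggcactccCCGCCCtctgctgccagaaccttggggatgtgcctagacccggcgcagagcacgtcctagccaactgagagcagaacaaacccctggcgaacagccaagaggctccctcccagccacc

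The *Cyp1b1* window held 1 match to GCGTG, on the reverse strand 76 to 72 bases before the start, and 1 GC box. The *Tm4sf1* window held none of the 4 motifs. The *Cav2* window held a TGANTCA match 92 to 86 bases before the start and a GC box, and the window before the first *Cav1* start held a GC box. No matches in these windows overlapped. Of 32851 windows in the table, 28.2% held GCGTG, 6.75% TGANTCA, 1.55% TGACGTCA and 32.7% GGGCGG. Of the 7 genes, 6 had an entry, and *Cavin3* had none. The *Cavin2* window held none of the 4 motifs, and those of *Cavin1* held only a GC box. A match is a string of letters and not a measured site.

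In GENCODE M21 on the same assembly, *Cav2* (ENSMUSG00000000058; chromosome 6, 17281185 to 17289115, plus strand) lies 17219 bases before *Cav1* (ENSMUSG00000007655; 17306335 to 17341452, plus strand). *Cavin3* (ENSMUSG00000037060) is at 105480083 to 105482300 on chromosome 7, minus strand. *Tm4sf1* (ENSMUSG00000027800) is at 57285611 to 57301988 on chromosome 3, minus strand, and *Cyp1b1* (ENSMUSG00000024087) at 79701537 to 79715061 on chromosome 17, minus strand. *Cavin1* (ENSMUSG00000004044) is at 100956733 to 100970887 on chromosome 11, minus strand, and *Cavin2* (ENSMUSG00000045954) at 51289126 to 51302960 on chromosome 1, plus strand. Only *Cavin3* shares exon bases with another gene: 374 bases lie under *Gm45667*, a predicted gene on the opposite strand. *Gm45667* had 47 to 366 counts per library, equal to 15.2 to 23.0% of the counts of *Cavin3*. Whether the counting used strand is not given in the sources used here, so reads in that stretch cannot be assigned to either gene with certainty.

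Total counts ran from 2997714 to 6563403 per library, and 3 counts were worth 0.402 to 1.10 CPM, which here always means counts divided by the TMM-scaled library size. The libraries carried motor neuron transcripts, such as *Nefh* at 5355 to 11935 CPM in all 6. Double-labelled pools 1 and 3 lay at opposite ends of the first principal component (34.8% of the variance), and all DiO-only pools lay between them. Fewer genes were detected in the double-labelled pools (15657 to 16467) than in the DiO-only pools (17229 to 22118). The oligodendrocyte markers summed to 287 to 579 CPM in DiO-only and 1454 to 4932 CPM in double-labelled pools, and all 10 tested markers were higher. For astrocytes, 6 of the 8 markers tested stood higher and the list's median was 2.49 (log2), with 0 passing, while the list summed to 294 to 942 and 580 to 768 CPM, which overlap. These differences lie between the same groups as those of the genes below, and their part in them was not tested. In pools of cells, fewer cells with a transcript and less of it per cell cannot be told apart.

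The 7 genes fell into 3 sets. *Tm4sf1*, *Cyp1b1* and *Cavin3* had lower counts in every double-labelled pool than in any DiO-only pool. *Cav2* and *Cavin2* were present in every library and overlapped between the groups, with intervals too wide to say that their levels were equal. *Cav1* and *Cavin1*, the genes that caveolae depend on, were close to the limit of detection throughout. The last 2 did not pass the filter on low counts, and the other 5 were tested.

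**Figure D1:**
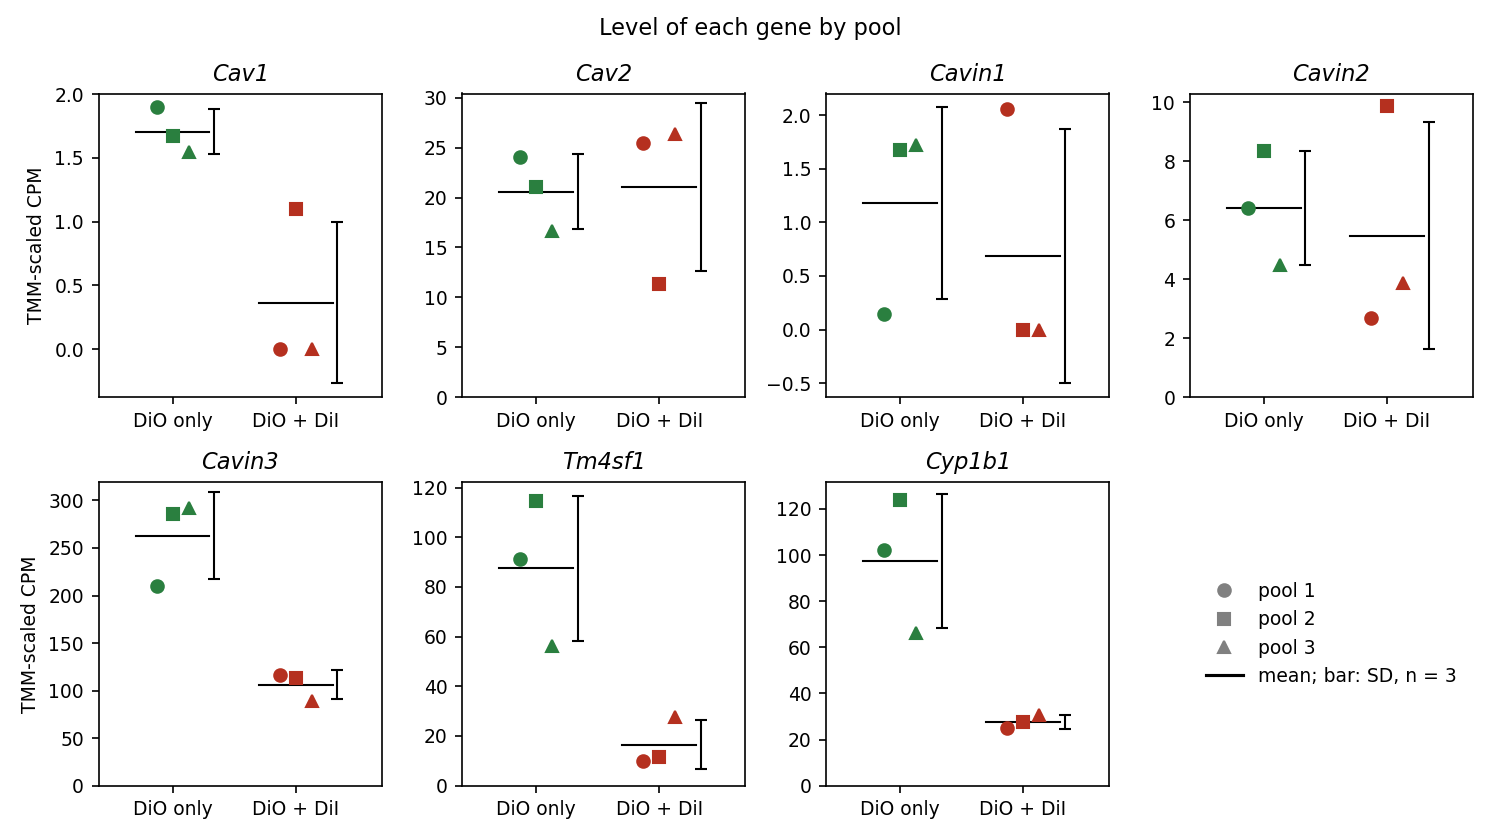
TMM-scaled CPM of the 7 genes in each pool, with green for DiO-only pools, red for double-labelled pools, 1 marker shape per pool number, and the mean with its SD (n = 3). The groups are apart for *Cavin3*, *Tm4sf1* and *Cyp1b1*, overlap for *Cav2*, *Cavin1* and *Cavin2*, and are apart for *Cav1* only within a range of 0 to 1.90 CPM. Each panel has its own linear axis.

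*Tm4sf1* stood at 91.3, 115 and 56.4 CPM in DiO-only pools 1, 2 and 3, and at 10.1, 11.7 and 27.7 CPM in double-labelled pools 1, 2 and 3. The raw counts behind these were 626, 343 and 328 against 49, 32 and 207, so each value rests on more than the 3-count floor. Double-labelled pool 3 was the highest of its group, and still below the lowest DiO-only pool. The means were 87.4 ± 29.3 and 16.5 ± 9.76 CPM (SD, n = 3), a log2 fold change of -2.39 ± 0.48 (SE) in the edgeR fit. Without double-labelled pool 3 it was -3.02.

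*Cyp1b1* stood at 102 CPM in DiO-only pool 1, 124 in pool 2 and 66.2 in pool 3, and at 24.9, 27.4 and 30.8 CPM in the double-labelled pools. The counts were 700, 371 and 385 against 121, 75 and 230. The double-labelled pools lay close together, while the DiO-only pools spread and had the same order as for *Tm4sf1*, with pool 2 highest and pool 3 lowest. The means were 97.4 ± 29.2 and 27.7 ± 2.99 CPM (SD, n = 3), with a log2 fold change of -1.81 ± 0.36 (SE).

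The counts of *Tm4sf1* for each count of *Cyp1b1* need no scaling between libraries. This ratio was 0.894, 0.925 and 0.852 in the DiO-only pools and 0.405, 0.427 and 0.900 in double-labelled pools 1, 2 and 3. Double-labelled pool 3 thus had the ratio of the DiO-only pools at a lower level of both genes, whereas in pools 1 and 2 *Tm4sf1* was lower than *Cyp1b1* by more.

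*Cavin3* was the most abundant of the 7 genes in both groups, on the CPM scale and per length. It stood at 210, 286 and 292 CPM in the DiO-only pools and at 117, 113 and 88.6 CPM in the double-labelled pools. The counts were 1440, 856 and 1700 against 569, 309 and 661. Every double-labelled pool was below every DiO-only pool, and DiO-only pool 1, not pool 3, was the lowest of its group. The means were 263 ± 45.7 and 106 ± 15.4 CPM (SD, n = 3), with a log2 fold change of -1.31 ± 0.30 (SE). The counts of the overlapping *Gm45667* were 19.9 to 23.0% of those of *Cavin3* in DiO-only pools and 15.2 to 22.7% in double-labelled pools.

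*Cav2* stood at 24.1, 21.0 and 16.7 CPM in the DiO-only pools and at 25.5, 11.3 and 26.4 CPM in the double-labelled pools. Double-labelled pool 2 was the lowest of all 6 and the other double-labelled pools were the highest, so the groups overlapped. The means were 20.6 ± 3.72 and 21.1 ± 8.44 CPM (SD, n = 3). The log2 fold change was 0.04 ± 0.49 (SE), with a 95% interval from -0.91 to 0.99 that spans almost a doubling in each direction. Its direction turned under 5 of 13 alternatives, so none is given.

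*Cavin2* stood at 6.42, 8.35 and 4.47 CPM in the DiO-only pools and at 2.67, 9.88 and 3.89 CPM in the double-labelled pools. Double-labelled pool 2 was again set apart, here as the highest of all 6 libraries. The means were 6.41 ± 1.94 and 5.48 ± 3.86 CPM (SD, n = 3), with a log2 fold change of -0.24 ± 0.89 (SE) and a 95% interval from -1.98 to 1.51. Its sign turned in 2 of 13 alternatives, without DiO-only pool 2 and without double-labelled pool 1.

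*Cav1* had 13, 5 and 9 counts in the DiO-only pools and 0, 3 and 0 in the double-labelled pools. That is 1.90, 1.67 and 1.55 CPM against 0, 1.10 and 0 CPM, and each count in the double-labelled group is at or under the 3-count floor. The pooled counts, 27 against 3, give a ratio of 8.65 (DiO-only over double-labelled) with an exact 95% interval from 2.66 to 44.6. This interval covers counting error only, and amplified reads without molecular identifiers are not independent molecules. *Cavin1* had 1, 5 and 10 counts against 10, 0 and 0. Its highest level, 2.05 CPM, was in double-labelled pool 1, and its pooled counts of 16 and 10 give a ratio of 1.54 with an interval from 0.656 to 3.79. The sum of both genes was 10 to 19 counts in the DiO-only pools and 10, 3 and 0 in double-labelled pools 1, 2 and 3. At this depth *Cavin1* was not detectable in double-labelled pools 2 and 3, where 3 counts equal 1.10 and 0.402 CPM.

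Levels of different genes were compared per kilobase of exon (TMM-scaled CPM divided by the length of all exons). In DiO-only pools the order of these levels was *Cavin3* at 158 ± 27.5, *Tm4sf1* at 21.0 ± 7.04, *Cyp1b1* at 16.7 ± 4.996, *Cav2* at 6.18 ± 1.12, *Cavin2* at 2.10 ± 0.636, *Cav1* at 0.495 ± 0.0515 and *Cavin1* at 0.328 ± 0.249 (SD, n = 3). The ranges of *Tm4sf1* and *Cyp1b1* overlapped, but within each of the 3 pools *Tm4sf1* was the higher, at 21.9 against 17.5, 27.5 against 21.2 and 13.5 against 11.3. For *Cav1* and *Cavin1* the order varied between pools. In double-labelled pools *Cavin3* still led at 63.9 ± 9.25. *Cav2* came next at 6.32 ± 2.53, ahead of *Cyp1b1* at 4.74 ± 0.511 and *Tm4sf1* at 3.96 ± 2.34, and the order of these 3 genes varied between pools. *Cavin2* stood at 1.79 ± 1.26, *Cavin1* at 0.191 ± 0.331 and *Cav1* at 0.106 ± 0.184. The order of *Tm4sf1* and *Cavin2* also varied between pools, as did that of *Cavin1* and *Cav1*.

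Among the 5 caveola genes, *Cavin3* made up 92.7, 94.5 and 96.0% of the level per kilobase in the DiO-only pools and 88.6, 90.7 and 85.3% in the double-labelled pools. *Cav1* made up at most 0.425% in any library and *Cavin1* at most 0.721%. The caveolin present was thus mainly *Cav2*, with 2.73 to 5.30% of the sum in the DiO-only pools and 4.54 to 12.7% in the double-labelled pools. The muscle forms *Cav3* and *Cavin4* had 7 and 1 counts over all 6 libraries. The sum of the 5 genes in CPM followed *Cavin3*, and without it the sum was 24.4 to 32.7 CPM in DiO-only and 22.3 to 30.3 CPM in double-labelled pools.

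In the test across all 12954 genes with edgeR's quasi-likelihood fit, 0 of the 5 tested members had an adjusted p under 0.05, and 0% of all genes did. *Tm4sf1*, *Cyp1b1* and *Cavin3* had edgeR adjusted p values of 0.357, 0.357 and 0.444. They are the 3 members with an unadjusted p under 0.05 and lower counts, a class that held 2.63% of all genes tested. They are also the 3 tested members whose double-labelled pools all lay below the DiO-only pools, as 7.07% of all genes tested did. Since these values led to the choice of the genes, nothing is read from the counts. DESeq2 on unfiltered counts called 2 members lower, *Tm4sf1* (adjusted p = 0.00237) and *Cyp1b1* (0.00792), where it called 0.236% of 15233 genes lower. Without the filter on low counts edgeR called the same 2 lower, with 0.126% of 28513 genes. With the replicate numbers as a block edgeR called 0 members, and 0.0849% of genes lower. Why these settings differed in their calls was not tested.

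**Figure D2:**
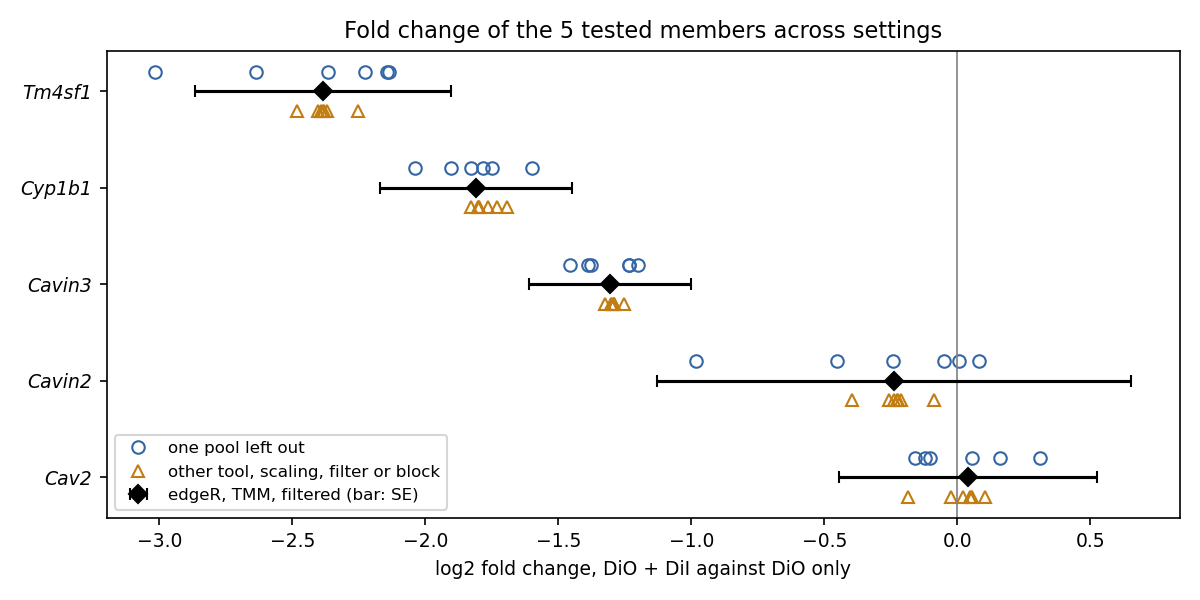
Log2 fold change of double-labelled against DiO-only pools for the 5 tested genes, with the edgeR estimate and its SE (black), 6 fits that leave out 1 pool each (circles) and 7 fits with another tool, scaling, filter or block (triangles). *Tm4sf1* stays between -3.02 and -2.14, *Cyp1b1* between -2.04 and -1.60 and *Cavin3* between -1.45 and -1.20, while *Cavin2* and *Cav2* have values on both sides of 0. The first 3 genes were chosen on lower counts in these same libraries.

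The vascular markers *Cldn5* (a tight junction protein of brain endothelium), *Pecam1* (an endothelial adhesion molecule) and *Flt1* (a receptor for vascular endothelial growth factor) were measured as context, since *Cav1*, *Tm4sf1* and *Cyp1b1* are known from vessels. *Cldn5* had 0, 9 and 106 counts in DiO-only pools 1, 2 and 3 and 0 in all double-labelled pools. *Pecam1* had 1, 0 and 6 counts against 0, 3 and 0, and *Flt1* had 4, 18 and 19 against 0, 1 and 3. None of the 3 passed the filter on low counts. DiO-only pool 3 thus held most of the marker counts of all 6 libraries, and 106 of the 115 counts of *Cldn5*.

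Summed over the 3 markers, the level was 0.729, 9.02 and 22.5 CPM in the DiO-only pools and 0, 1.46 and 0.402 CPM in the double-labelled pools. The groups overlapped, because DiO-only pool 1 lay below double-labelled pool 2 (exact two-sided permutation p = 0.2, where 3 against 3 allows no less than 0.1). The difference between the group means, -10.1 CPM, was -4.25 CPM without DiO-only pool 3. The order of the DiO-only pools in this sum was not that of *Tm4sf1* and *Cyp1b1*. It was that of *Cavin3*, at 210, 286 and 292 CPM in pools 1, 2 and 3, of which pools 2 and 3 lay close together. *Cavin1*, on 1, 5 and 10 counts, had too few to give an order. Its highest level was in double-labelled pool 1, where the vascular sum was 0. An order of 3 pools is a description, and a link was not tested. DiO-only pool 1, with 0 counts of *Cldn5* and 5 counts over the 3 markers, had *Tm4sf1* at 91.3 and *Cyp1b1* at 102 CPM. These 5 counts are too few to fix the vascular RNA of that pool. In the vascular genes *Ly6c1* and *Acta2* it lay above every double-labelled pool, and in *Tek* and *Rgs5* within their range. DiO-only pool 3, with the highest vascular sum, had the lowest level of both genes in its group. Without that pool the log2 fold changes were -2.64 for *Tm4sf1*, -2.04 for *Cyp1b1* and -1.24 for *Cavin3*. *Cav1* stood at 1.90, 1.67 and 1.55 CPM in DiO-only pools 1, 2 and 3, on 13, 5 and 9 counts, too few to give an order.

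**Figure D3:**
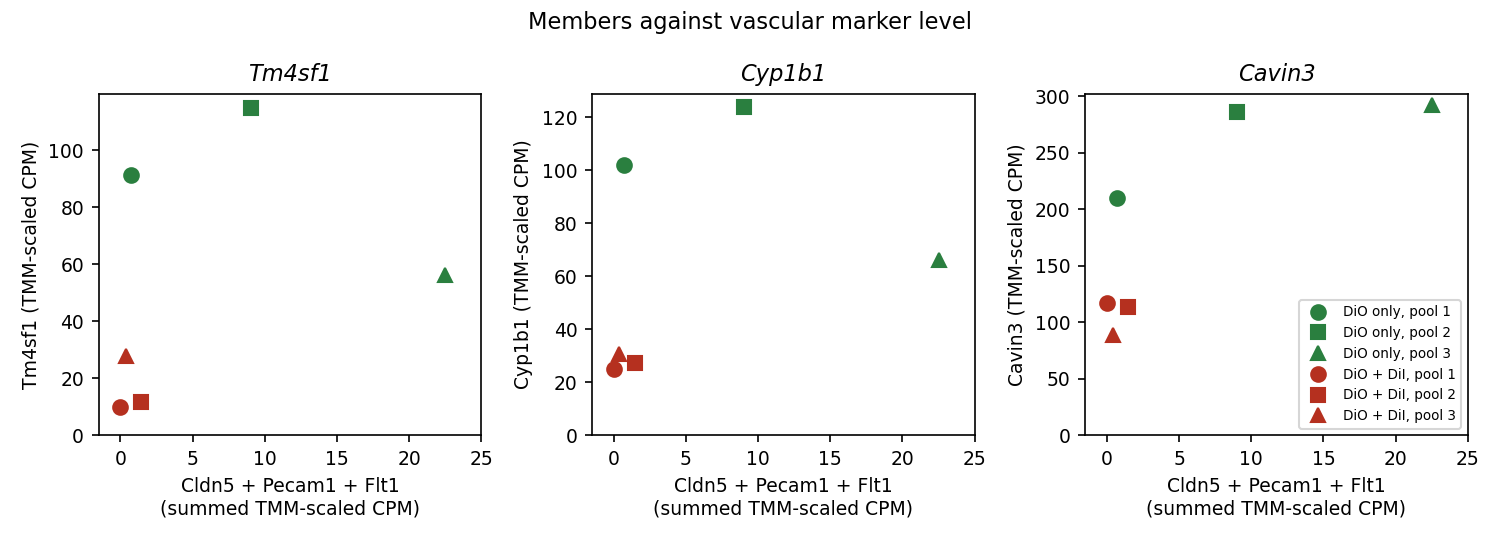
TMM-scaled CPM of *Tm4sf1*, *Cyp1b1* and *Cavin3* (vertical axes) against the summed CPM of the 3 vascular markers (horizontal axes), 1 point per pool. DiO-only pool 1 (green circle) has a vascular sum of 0.729 CPM, in the range of the double-labelled pools (red, 0 to 1.46 CPM), and lies above them in every panel. That sum rests on 5 counts. In *Ly6c1* and *Acta2*, not shown here, pool 1 lay above every double-labelled pool, and in *Tek* and *Rgs5* within their range.

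The wider endothelial list had 15 genes, of which 14 had a count and *Tie1* had 0. Of the 6 tested, 4 were lower, beside 48.7% over all genes tested, and 0 passed. The median log2 fold change was -0.24 beside 0.02 over all genes tested. This median varied with the settings: it ran from -3.21 (14 genes, without the filter) to 0.0037 (3 genes, stricter filter), and was -3.01 without double-labelled pool 1, -1.47 without pool 2 and -1.15 without pool 3. It was -0.9995 without DiO-only pool 1 and -0.49 without DiO-only pool 2, the last a shift within the spread between pools. Its summed level was 156 to 176 CPM in DiO-only and 184 to 363 CPM in double-labelled pools, most of it *Itm2a* and *Egfl7*. *Itm2a* was higher in double-labelled pools, at 43.0 ± 9.59 and 177 ± 102 CPM with no overlap, and *Egfl7* stood at 80.5 ± 7.77 and 80.3 ± 14.1 CPM (SD, n = 3). Without these 2, a choice made after seeing the values, it was 14.9, 41.8 and 64.1 CPM in the DiO-only pools and 10.9, 10.6 and 7.50 CPM in the double-labelled pools. *Ly6c1*, a surface antigen of vessels, stood at 3.65, 15.4 and 12.2 against 0, 0.366 and 1.47 CPM. Of 10 mural cell markers, *Kcnj8* and *Higd1b* had 0 counts, and the list summed to 7.15 to 19.2 and 4.39 to 10.9 CPM. The actin gene *Acta2* of smooth muscle stood at 2.92, 7.02 and 8.08 against 0, 0.366 and 0 CPM. *Rgs5*, of pericytes, stood at 2.20 ± 2.22 and 4.61 ± 3.99 CPM and *Tagln*, of smooth muscle, at 3.99 ± 1.37 and 3.02 ± 1.47 CPM (SD, n = 3), both with overlap. Among other endothelial genes, *Cdh5*, *Emcn* and *Abcb1a* had 26, 12 and 38 counts over the DiO-only pools and 0 over the double-labelled pools. *Esam* had 37 against 2 counts and *Slco1a4* 58 against 8. In the endothelial list only *Itm2a* and *Tek* (24 against 41 counts) had a higher mean CPM in double-labelled pools. The mural genes differed in direction. The part of the vascular genes in the levels of *Tm4sf1*, *Cyp1b1* and *Cavin3* was not tested.

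Genes that work with caveolins and cavins lay on both sides of 0. Of 14 accessory genes 9 were tested, 4 lower and 5 higher, 0 passed in edgeR, and the median log2 fold change was 0.05 (-0.04 to 0.16 over 13 alternatives) beside 0.02 over all genes. *Ehd3*, of a membrane-bending ATPase family, stood at 198 ± 27.8 and 182 ± 24.8 CPM (SD, n = 3). *Pacsin1*, the neuronal form of a membrane-curving protein, stood at 166 ± 75.1 and 172 ± 42.5 CPM, and the actin cross-linker gene *Flna*, whose product binds caveolin-1, at 115 ± 43.0 and 143 ± 18.0 CPM. *Ehd2*, which sits at the neck of caveolae, had 16 and 10 counts in the groups, as few as *Cavin1*. Its relative *Ehd1*, of endosome recycling, stood at 48.3, 54.8 and 66.2 CPM against 21.0, 30.0 and 30.7 CPM, with no overlap (log2 fold change -1.05 ± 0.37, SE). *Pacsin3* went the other way, at 9.04 ± 4.27 and 33.5 ± 34.9 CPM with overlap (log2 fold change 1.88 ± 0.73, SE).

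Of 16 genes for proteins known to reside in caveolae, 12 were tested, 3 lower and 9 higher, 0 passed, and the median was 0.36 (0.10 to 0.45 over the alternatives, lowest without double-labelled pool 2). Coats of other uptake routes, flotillins and clathrin with its adaptor, had 10 of 13 tested genes lower, 0 passed, and a median of -0.16 (-0.38 to -0.13). Over all genes tested, 48.7% were lower. Of the coat genes, the clathrin light chain gene *Cltb* stood at 678 ± 41.6 and 446 ± 22.0 CPM (SD, n = 3) with no overlap. The adaptor gene *Ap2m1* stood at 586 ± 245 and 355 ± 123 CPM and *Cltc*, of clathrin, at 418 ± 163 and 393 ± 84.7 CPM, both with overlap.

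For *Cyp1b1*, the AhR pathway was listed. *Ahr* itself was low, at 2.04, 10.7 and 10.998 CPM in the DiO-only pools and 8.01, 11.7 and 1.07 CPM in the double-labelled pools. Of the 14 listed genes 13 had a count, 9 were tested, 5 were lower and 4 higher, 0 passed, and the median log2 fold change was -0.13 (-0.22 to 0.09). The other AhR-induced P450 genes were near absent, *Cyp1a1* with 15 counts over the DiO-only pools and 0 over the double-labelled pools, and *Cyp1a2* with 0 in all. The chaperone gene *Hsp90ab1* stood at 4236 ± 1995 and 3190 ± 634 CPM (SD, n = 3). Of 13 other P450 genes 10 were tested, with 4 lower, 0 passed and a median of 0.18, which ran from -0.02 to 0.66 over the alternatives and was highest without DiO-only pool 3. The sterol-synthesis enzyme gene *Cyp51* stood at 136 ± 17.6 and 117 ± 52.6 CPM.

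*Tm4sf1* had more counts than the other L6 family genes listed. *Tm4sf4* and *Tm4sf5* had 8 and 3 counts in total, and *Tm4sf19* and *Tm4sf20* had 0. With the tetraspanins, a separate family of surface proteins with 4 membrane spans, 9 of 14 listed genes were tested, 7 of them lower, 0 passed, and the median was -0.10 (-0.23 to -0.06). *Cd81* stood at 957 ± 147 and 912 ± 267 CPM and *Tspan3* at 449 ± 50.5 and 456 ± 38.7 CPM (SD, n = 3). The list of YAP, a transcriptional co-activator that responds to membrane and matrix tension, had 7 of 13 genes tested, 5 lower, 0 passed, and a median of -0.58 (-1.04 to -0.33). *Yap1* itself had 17 counts over all 6 libraries and was not tested. Beside these counts and those of the L6 and tetraspanin list, 48.7% of all genes tested were lower. The YAP target *Ankrd1* stood at 17.9, 50.8 and 39.2 CPM against 15.8, 21.2 and 13.3 CPM, with overlap.

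**Figure D4:**
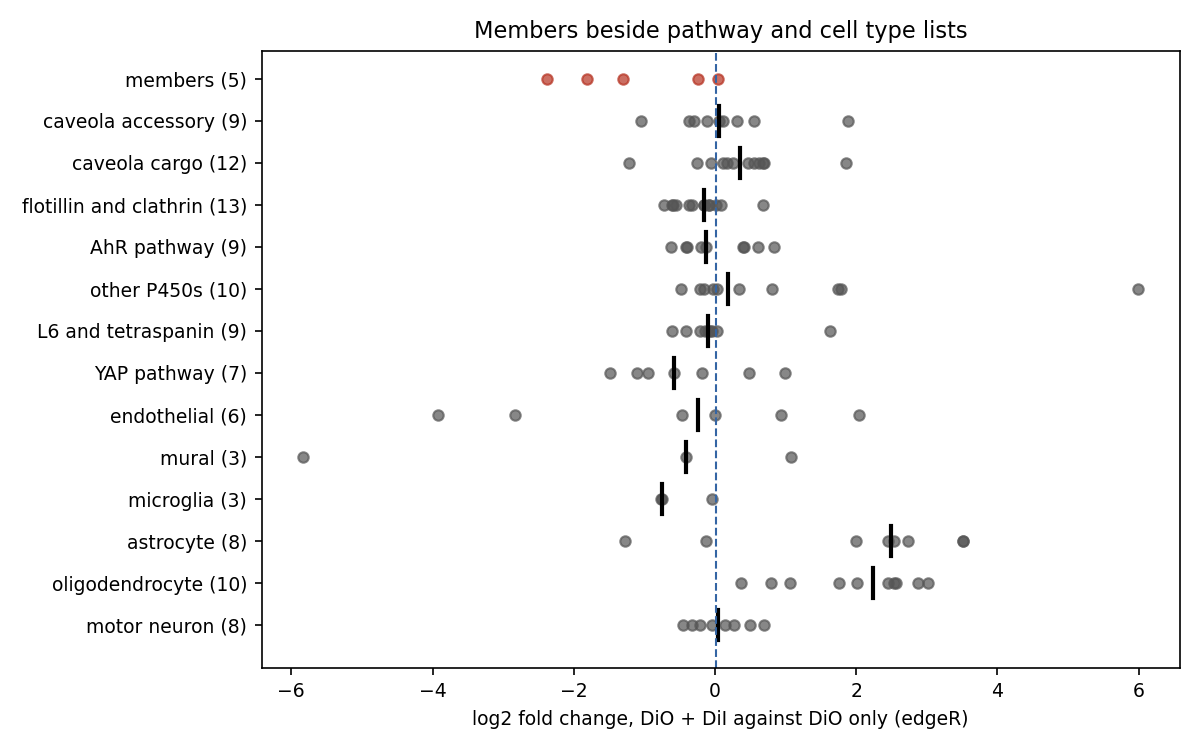
Log2 fold change of double-labelled against DiO-only pools for each tested gene (points), with *Cav2*, *Cavin2*, *Cavin3*, *Tm4sf1* and *Cyp1b1* on the top line (members), the number of genes in brackets, the median of each list as a bar and the median of all genes tested (0.02) as a dashed line. *Tm4sf1*, *Cyp1b1* and *Cavin3*, which were chosen on their difference between the groups, lie at -2.39, -1.81 and -1.31, and *Cav2* and *Cavin2* at 0.04 and -0.24. The medians of the caveola, AhR and L6 lists lie between -0.13 and 0.36, with single genes of these lists further out on both sides.

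Across the 6 libraries, *Cavin3* and *Cyp1b1* had the most similar profiles of any pair of members. Their log2 CPM values, each centred on the gene's own mean, differed by 0.46 (root mean square), followed by *Tm4sf1* and *Cyp1b1* with 0.50. *Cavin3*, *Tm4sf1* and *Cyp1b1* were chosen on lower counts in double-labelled pools, so part of this closeness follows from that choice. *Cavin3* and *Tm4sf1* differed by 0.89. Whether any of these pairs were alike apart from the group difference was not tested. *Cav1* and *Cav2*, neighbours on chromosome 6, differed by 1.52, though *Cav1* rests on few counts. Among 10776 genes with a mean of at least 5 CPM, the 6 closest to the mean profile of the 7 members were *Nf2*, *Ina*, *Hacd1*, *Slc39a6*, *Ptges* and *Wrnip1*, with distances from 0.12 to 0.20. *Nf2*, the gene of the cytoskeletal adaptor merlin, stood at 35.6, 59.8 and 42.1 CPM in the DiO-only pools and 20.5, 22.0 and 19.4 CPM in the double-labelled pools. *Ina*, of the neuronal intermediate filament alpha-internexin, stood at 444, 713 and 508 against 195, 323 and 201 CPM. As in *Tm4sf1* and *Cyp1b1*, DiO-only pool 2 was the highest library for both. Both were picked by closeness to the mean profile of the members, which was highest in that pool and lower in the double-labelled pools. Their pool order and group difference thus follow from that choice.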

How the data were processed

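The authors deposited raw read counts for each Ensembl gene. FastQC, HISAT2, HTSeq and the build mm10 are named in the submitters' processing notes. Versions, annotation, strand setting and the treatment of reads with several map positions are not given in these sources. Per the labels, RNA was amplified over 20 PCR cycles, and no molecular identifiers are named. The 6 single-library files held the same counts as the table.

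In R 4.3.3, filterByExpr kept 12954 of 53858 genes, with 99.2% of the counts. Libraries were scaled by TMM and the groups compared with edgeR 4.0.16 (robust quasi-likelihood F-test, two-sided, Benjamini-Hochberg over all tested genes, threshold 0.05). Log2 CPM used a prior count of 2. Each standard error is the log2 fold change divided by the root of F. Single sums were compared with exact permutation tests. Alternatives used DESeq2 1.42.0, limma 3.58.1 voom, other scalings and filters, a replicate block and leaving out each pool. The fit was tested on simulated data. Exon lengths come from GENCODE M21 and upstream sequences from RefSeq. Figures used matplotlib 3.10.9.

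The genes and lists were chosen with earlier results of these data known. Named besides the 7 genes and 3 vascular markers were list members among the 3 of highest mean CPM in their list, and the 6 genes of most similar profile. *Ahr*, *Cyp1a1*, *Cav3*, *Cavin4*, *Ehd1*, *Ehd2*, *Pacsin3*, *Yap1*, the L6 genes and genes at 0 were named after their values were seen. So were *Cdh5*, *Emcn*, *Abcb1a*, *Esam*, *Slco1a4* and *Tek*. Some genes chosen in this way are left unprinted.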

Additional observations from a re-analysis of the deposited data

How the results depend on the processing

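*Tm4sf1*, *Cyp1b1* and *Cavin3* were lower in double-labelled pools in all 13 alternatives. They were chosen on the size of p and lower counts in these same libraries. The sign was thus fixed by that choice, and the calls that follow are a description. *Tm4sf1* and *Cyp1b1* passed 0.05 in edgeR without the filter (log2 fold changes -2.40 and -1.83, adjusted p = 0.00013 and 0.00902) and in DESeq2 (-2.38 and -1.80). *Cavin3* passed in none, with DESeq2 nearest at an adjusted p of 0.0515. The number of genes called was 0 in the reported edgeR fit (753 at an unadjusted p under 0.05), 79 without the filter, 75 with DESeq2 and 23 with the replicate block, and 0 in each of the 6 fits without 1 pool. *Cav2* turned to -0.19 with limma voom, to -0.026 with the replicate block, and ranged from -0.16 to 0.31 when 1 pool was left out. *Cavin2* ranged from -0.98 to 0.082 in the same fits. The difference in the vascular sum (double-labelled minus DiO-only) was -10.1 CPM and ranged from -15.1 to -4.25 when 1 pool was left out, the last without DiO-only pool 3. The cause of these changes was not tested. List medians and sums moved by less than the spread between pools in 255 alternatives and by more in 33. The 6 genes of most similar profile were the same 6 with total-count scaling. Replicate numbers do not pair the pools by the labels. Deviations of same-numbered pools correlated at 0.0749, 0.229 and 0.185 across genes, and every pool correlated best with its own number, a hint from the data only. The block called 0 of the 5 tested members. Depth limits *Cav1*, *Cavin1*, *Cldn5*, *Pecam1* and *Flt1*, which were too low for the reported fit.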
